A study of Mus musculus with 12 samples.

Results

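The effect of the drug GW1516 in trained muscle was read from 6 of the 12 arrays of the series, the 3 of trained and drug-treated mice against the 3 of trained mice without the drug. The members were taken by sample title, with earlier results of these data known. Of 22626 probe sets 13575 passed the filter on low signal and were tested. All arrays held RNA from quadriceps muscle of C57Bl/6J mice, frozen after 4 weeks of treatment. The exercise group ran on a treadmill, and per the labels' protocol trained mice without the drug received vehicle. The combination group, titled GW + Exercise in the labels, was exercised over the same weeks and received GW1516 at 5 mg/kg per day. The remaining arrays came from sedentary mice, with vehicle in the vehicle group and the same dose of GW1516 in the GW group, 3 arrays each. RNA of 3 mice was pooled for each array, and the p-values therefore cover the spread among pools and not among mice. The labels give no age or sex, and they do not say how long after the last run the muscle was taken.

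GW1516 is a synthetic agonist of PPARδ, a nuclear receptor that pairs with the retinoid X receptor on DNA and switches on genes for the uptake and burning of fatty acids. Muscle fibres use this receptor during fasting and exercise, when fat replaces glucose as fuel. The mouse quadriceps consists mostly of fast fibres, which draw more on glycolysis than slow fibres do.

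Signals are the authors' MAS5 values on a linear scale, and fold changes are differences of mean log2 signal, tested with limma on all 12 arrays. A probe set is said to have risen or fallen where its adjusted p was under 0.05. The 95th percentile of the bacterial control probe sets, a signal of 23.5, served as the background level. Median signals per array lay between 48.4 and 57.2, and the mean correlation of an array with its own group lay between 0.95 and 0.968. All 10 muscle fibre markers on the array lay above background, and their summed signal was 156000 to 161000 in exercise and 146000 to 159000 in the combination. As a measure of RNA quality, the beta-actin probe sets at the 3' and 5' ends had signal ratios of 0.763 to 0.816 in exercise and 0.803 to 0.841 in the combination.

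The combination arrays were not alike. Combination array 1 had high levels of immediate early and heat shock genes, as the exercise arrays had. Its level of fat cell markers lay within the range of the other groups. Arrays 2 and 3 had lower levels of the former genes, and their fat cell marker levels lay above those of all other arrays. On a scale of log2 signal centred over all arrays, immediate early genes averaged 0.43 in combination array 1, 0.00 in array 2 and -0.56 in array 3, against 0.61, 0.69 and 0.9 in the exercise arrays. Fat cell markers averaged -0.39, 1.04 and 1.58 in the combination arrays against -0.3, -0.26 and -0.01 in exercise. They averaged -0.65 to -0.02 in vehicle and -0.36 to -0.13 in GW. Leaving out combination array 1 therefore keeps the arrays that stand apart in fat cell markers. Lipid synthesis genes averaged 0.02 in combination array 1, above the exercise arrays at -0.25, -0.21 and -0.18, and 0.62 and 0.89 in arrays 2 and 3. Results that rest on these arrays are therefore given with and without combination array 1. That array was singled out by its levels of these lists. For immediate early, heat shock, fat cell and lipid synthesis genes, values without it are therefore a description and not a test.

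**Figure D1:**
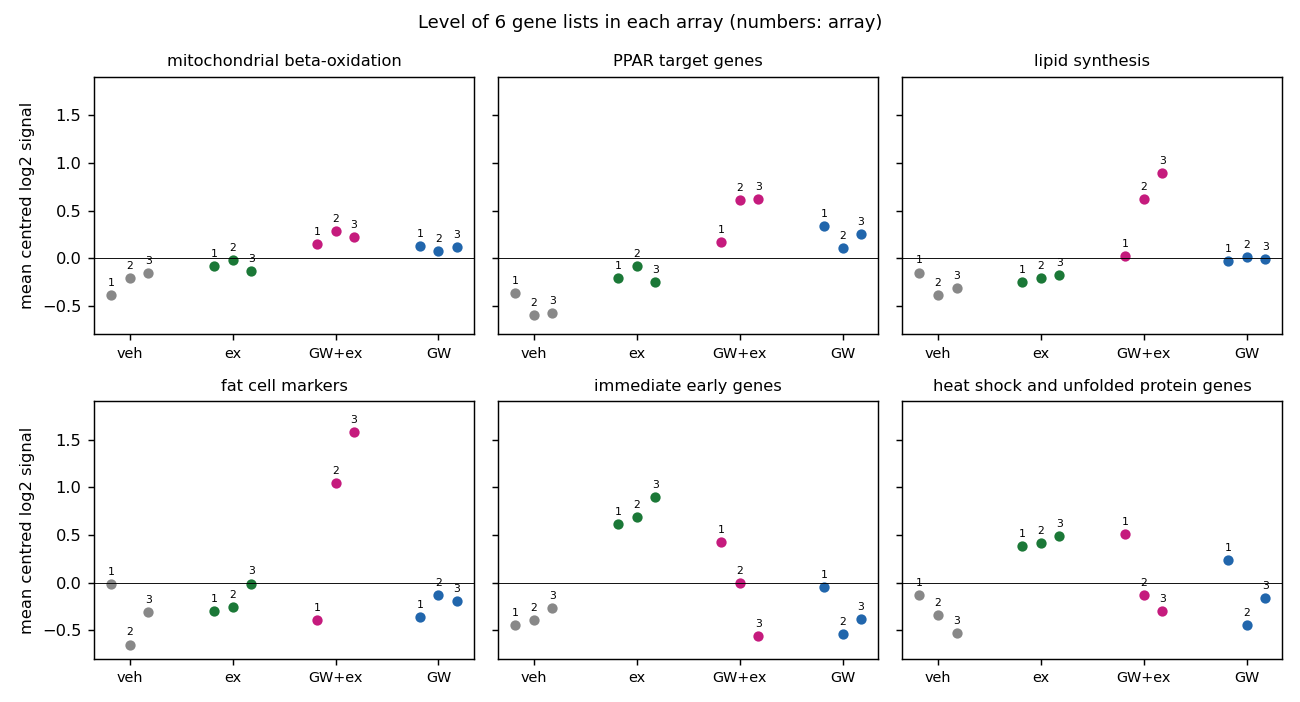
Mean log2 signal of 6 gene lists in each array, centred per gene over all 12 arrays (y axis), by group (x axis: vehicle, exercise, GW + exercise, GW); each point is 1 array and carries its number, and a gene enters with 1 probe set. Combination array 1 lies at 0.43 for immediate early genes and at -0.39 for fat cell markers, and array 3 at -0.56 and 1.58.

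In trained muscle GW1516 raised 13 probe sets of 13 genes and lowered 9 probe sets of 9 genes, which together are 0.162% of those tested (0.0958% higher, 0.0663% lower). By fold change, the genes that rose were led by the lipid synthesis gene Scd1, the fatty acid transport gene Slc27a1 and the fatty acid oxidation gene Cpt1a, and the genes that fell by the polyamine gene Odc1, the phosphatase gene Dusp1 and the surface protein gene Cd24a. The names of the called probe sets of Odc1, Cd24a, Serinc3 and Acaa2 carry a suffix that marks possible binding of other transcripts. In all 22 the combination arrays lay on one side of the exercise arrays, as in 15.8% of all probe sets tested (7.58% higher, 8.21% lower). At an unadjusted p under 0.05 there were 623 higher and 623 lower probe sets, 4.59% each, and the median log2 fold change over all was -0.01. Without combination array 1 the count was 83 (0.611%), of which 47 were higher and 36 lower and 20 were among the 22. Leaving out exercise array 2 gave 13, exercise array 3 gave 8, combination array 2 gave 8 and combination array 3 gave 15.

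**Figure D2:**
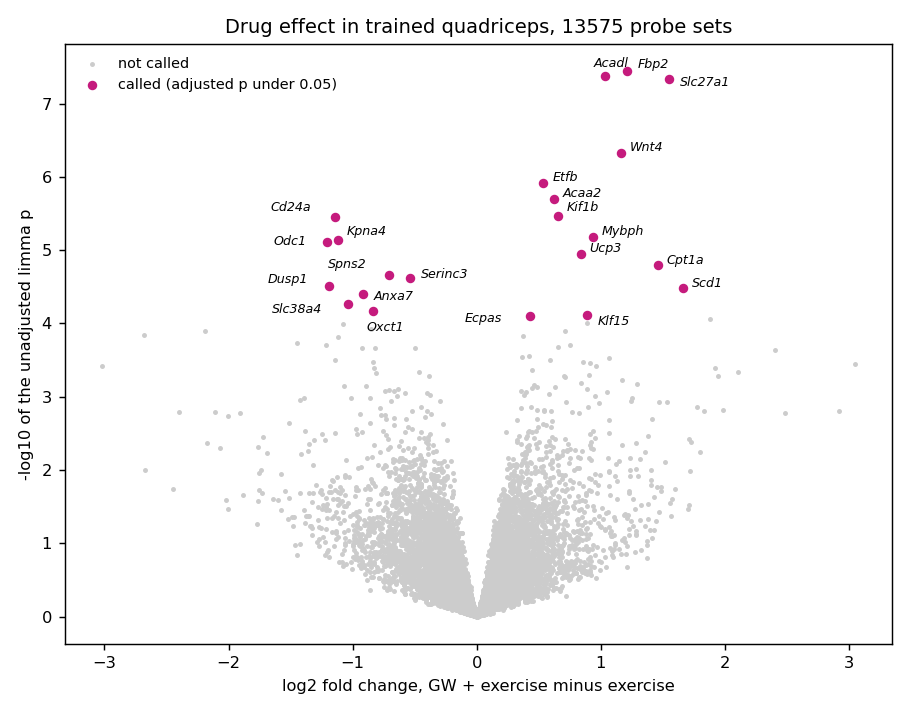
Log2 fold change between the combination and exercise (x axis) against -log10 of the unadjusted limma p (y axis) for the 13575 probe sets tested. Large points are the 22 with an adjusted p under 0.05, 13 to the right and 9 to the left; Fbp2, Acadl and Slc27a1 have the smallest p-values (adjusted p = 0.000206 each).

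Genes that bring fatty acids into the fibre and its mitochondria were higher in trained muscle with the drug. Slc27a1 (Entrez gene 26457), which carries long-chain fatty acids across the cell membrane, had signals of 122, 146 and 157 in exercise and 364, 431 and 442 in the combination. Vehicle arrays had 95.3, 126 and 125, and GW arrays 342, 329 and 319. All drug-treated arrays lay above all arrays without the drug, whether the mice had trained or not. Against exercise Slc27a1 rose 2.92-fold, from a mean of 141 ± 17.9 to 412 ± 42.0 (SD, n = 3; log2 1.55 ± 0.15 SE, adjusted p = 0.000206 by limma). Cpt1a (Entrez gene 12894) encodes a form, not the only one, of the enzyme that admits long-chain fatty acids to the mitochondrion. It had 53.5, 48.3 and 82.5 in exercise and 152, 150 and 195 in the combination. Its vehicle signals, 63.2, 58.9 and 58.3, lay within the range of exercise, and the 3 GW arrays, at 98, 143 and 128, lay below the combination. Cpt1a rose 2.75-fold (log2 1.46 ± 0.23, adjusted p = 0.0169). That call ended without exercise array 1 (adjusted p = 0.0709) or 2 (0.087) or combination array 2 (0.0738) or 3 (0.11).

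The enzymes that shorten fatty acids inside the mitochondrion rose by smaller steps. Acadl (Entrez gene 11363), the long-chain acyl-CoA dehydrogenase, had 1410, 1550 and 1220 in exercise and 2840, 3120 and 2590 in the combination. GW arrays, at 2830, 3000 and 2650, overlapped the combination, and vehicle arrays, at 1200, 1120 and 1040, lay below exercise. Acadl rose 2.05-fold (log2 1.03 ± 0.10, adjusted p = 0.000206). Acaa2 (Entrez gene 52538), the thiolase of the last step, rose 1.54-fold in 1 probe set, from 701, 776 and 718 to 1130, 1120 and 1120 (log2 0.62 ± 0.08, adjusted p = 0.00456). Its other 2 probe sets had 0.49 and 0.66 and did not pass. Etfb (Entrez gene 110826), a subunit of the flavoprotein that takes electrons from these dehydrogenases, rose 1.45-fold, from 2610, 2690 and 2630 to 3640, 3970 and 3910 (log2 0.54 ± 0.07, adjusted p = 0.00327). For Acaa2 and Etfb the spread within each group was small beside the gap between the groups.

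Ucp3 (Entrez gene 22229) is a mitochondrial carrier related to the uncoupling protein of brown fat. In the called probe set it was higher in exercise than in vehicle, though not past the threshold. Its signals were 439, 386 and 465 in vehicle, 665, 747 and 706 in exercise, 1410, 1180 and 1200 in the combination and 1400, 963 and 1100 in GW. The vehicle, exercise and drug-treated arrays formed 3 levels that did not overlap. The step from exercise to the combination was 1.79-fold (log2 0.84 ± 0.13, adjusted p = 0.0126). It was smaller than the step from vehicle to GW, log2 1.41 ± 0.13, and the difference of these steps was -0.57 (interaction adjusted p = 0.703). The second Ucp3 probe set had 1050, 1110 and 953 in exercise and 1250, 1300 and 1350 in the combination (log2 0.33, adjusted p = 0.414). The Ucp3 call ended without exercise array 1 (adjusted p = 0.0636), exercise array 3 (0.0755) or combination array 2 (0.0543).

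Promoter sequences were set beside these results because PPARδ binds DNA at repeats of the hexamer AGGTCA. Windows from 250 bases before to 50 after each start site in RefSeq (GRCm38.p6) were searched on both strands for AGGTCA and for the direct repeat AGGTCANAGGTCA with at most 2 mismatches, a match of which can contain the hexamer. Of the 13 genes that rose, 11 had a promoter in the table, all but Scd1 and Acaa2. The hexamer was in those of Cpt1a, Mybph and Ucp3, and the repeat in that of Ucp3. Over all 32851 promoters 16.3% held the hexamer and 3.86% the repeat. Among the 9 genes that fell, 8 had a promoter, and that of Spns2 held both. The 250 bases before the start of Ucp3 (chr7:100472741-100472990, plus strand) and of Cpt1a (chr19:3323051-3323300, plus strand) are shown for the fuel genes, with the repeat of Ucp3 in capitals, its first base at -51, and the hexamer of Cpt1a, which reads on the opposite strand, in capitals at -94. The same window of Dusp1 (chr17:26508473-26508722, minus strand) is shown for the genes that fell, with the cAMP response element TGACGTCA in capitals at -143, a sequence that 1.79% of all promoters held. Among the called genes it was in that of Dusp1 alone. The heat shock element GAANNTTCNNGAA (0.603% of all promoters), the sterol response element (0.0913%) and the CArG box (1.63%) were searched too and matched in none of them.
Ucp3: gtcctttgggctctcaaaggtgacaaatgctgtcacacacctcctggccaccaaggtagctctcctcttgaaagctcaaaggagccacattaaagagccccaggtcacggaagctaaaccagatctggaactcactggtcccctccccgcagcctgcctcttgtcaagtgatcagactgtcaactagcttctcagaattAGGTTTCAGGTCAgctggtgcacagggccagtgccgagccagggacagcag
Cpt1a: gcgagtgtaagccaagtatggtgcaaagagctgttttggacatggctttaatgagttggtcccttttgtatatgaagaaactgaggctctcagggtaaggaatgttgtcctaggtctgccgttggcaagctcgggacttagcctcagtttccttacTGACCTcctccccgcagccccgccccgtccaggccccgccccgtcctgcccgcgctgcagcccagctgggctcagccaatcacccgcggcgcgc
Dusp1: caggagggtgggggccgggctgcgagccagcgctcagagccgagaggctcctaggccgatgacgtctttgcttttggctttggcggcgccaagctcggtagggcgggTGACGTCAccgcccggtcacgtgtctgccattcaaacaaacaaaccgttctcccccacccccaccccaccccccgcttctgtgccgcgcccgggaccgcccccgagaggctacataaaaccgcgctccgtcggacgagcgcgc
These matches describe the letters of the windows, and no measurement of binding was made.

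Most other members of the same pathways had positive fold changes that did not pass the test. Of 27 probe sets of mitochondrial beta-oxidation genes, 24 had a positive fold change, 3 rose and 0 fell (median log2 0.23). Of 25 probe sets for fatty acid uptake and the carnitine shuttle, 21 were positive, 2 rose and 0 fell (median 0.38), and of 31 probe sets of PPAR target genes 29 were positive, 5 rose and 0 fell (median 0.42). Over all probe sets 48.7% were positive. The lists share genes, and PPAR target genes include Acadl, Acaa2, Slc27a1, Cpt1a and Ucp3. On the log2 scale the carnitine acetyltransferase gene Crat had 0.38 (adjusted p = 0.0664), the carnitine carrier gene Slc25a20 had, in 1 probe set, 0.75 (0.0771) and the enoyl-CoA isomerase gene Eci2 had 0.59 (0.0978), each with separated arrays. Peroxisomal fatty acid oxidation genes had a median of 0.25, with 12 of 17 probe sets positive and 0 called. Without combination array 1, 8 of 31 probe sets of PPAR target genes rose (0.346% over all probe sets), with Plin2, Ech1 and Cidec added to the genes named here. Cidec is also a fat cell marker, and 8 of 14 fat cell marker probe sets rose in the same fit (median 1.36); their part in the added calls was not tested.

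Angptl4, a secreted inhibitor of lipoprotein lipase and a classical PPARδ target, had the largest positive fold change of all probe sets tested and did not pass. It had 80.7, 42.5 and 9.01 in exercise and 156, 342 and 328 in the combination (log2 3.05 ± 0.66, adjusted p = 0.102). The exercise arrays spread from below background to well above it, and the combination arrays lay higher. Pdk4, a kinase that holds back pyruvate oxidation, had 2400, 3310 and 2750 in exercise, 2930, 3880 and 3600 in the combination and 2070, 1230 and 1280 in vehicle. Its exercise and combination arrays overlapped (log2 0.30, 95% interval -0.19 to 0.80, adjusted p = 0.751), and the combination lay above vehicle by 1.22 (0.057). The fatty acid binding protein gene Fabp3 (log2 0.38, adjusted p = 0.34) and the malonyl-CoA decarboxylase gene Mlycd (0.45, 0.11) were higher in every combination array than in every exercise array and did not pass. Ppard, which encodes the receptor itself, lay below the filter on low signal, with no array above 5.75.

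**Figure D3:**
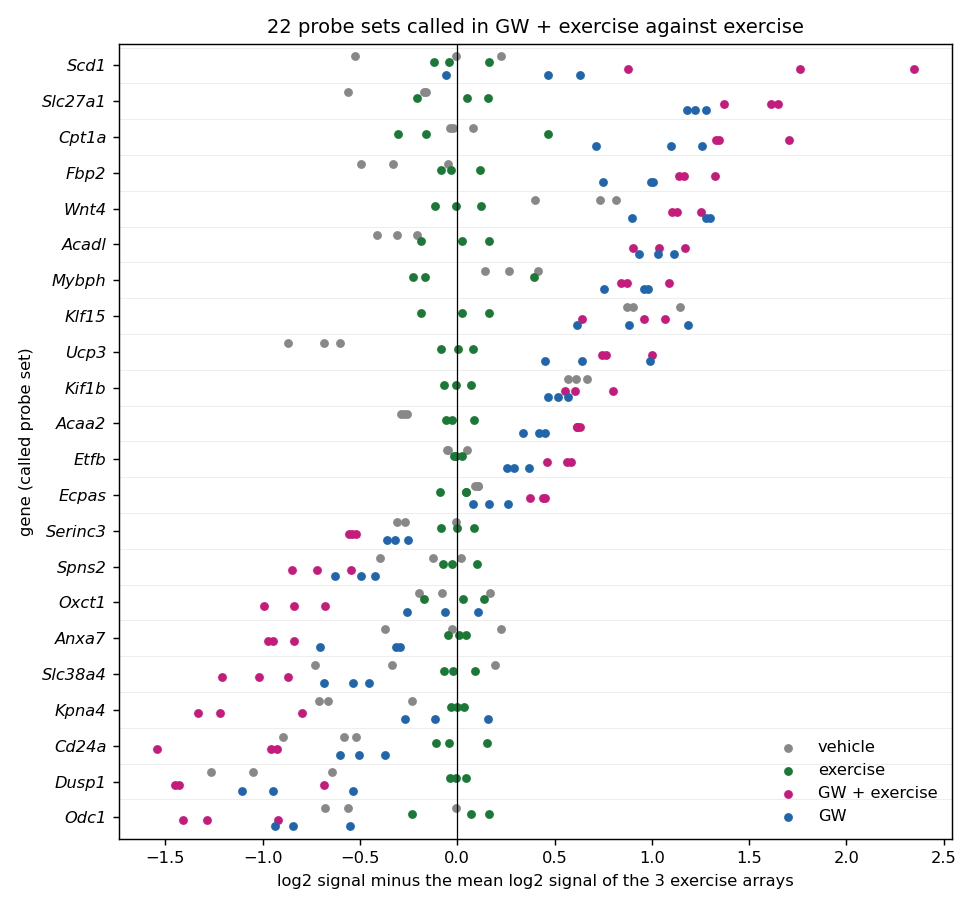
Signal of each of the 22 probe sets that rose or fell, as log2 minus the mean log2 of the 3 exercise arrays (x axis), 1 row per gene, ordered by fold change; each point is 1 array of vehicle, exercise, GW + exercise or GW. The combination points lie wholly to the right of the exercise points in the upper 13 rows and wholly to the left in the lower 9.

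Outside fatty acid oxidation, Fbp2 (Entrez gene 14120), the muscle fructose bisphosphatase that runs against glycolysis, rose 2.31-fold. Its signals were 725, 831 and 749 in exercise and 1690, 1920 and 1720 in the combination (log2 1.21 ± 0.12, adjusted p = 0.000206), with 1290, 1540 and 1530 in GW. The drug-treated arrays lay above all others in both trained and sedentary mice. Of 35 probe sets for glucose and pyruvate use this was the only one that rose; 26 had a negative fold change, 0 fell, and the median was -0.10. The glucose transporter gene Slc2a4 had, in 1 of its probe sets, 2450, 2650 and 2600 in exercise and 2230, 2110 and 1960 in the combination (log2 -0.29, adjusted p = 0.169). Mybph (Entrez gene 53311), a myosin-binding protein of the sarcomere, rose 1.91-fold, from 2570, 1670 and 1740 to 4150, 3580 and 3500 (log2 0.93 ± 0.14, adjusted p = 0.00948). Ecpas (Entrez gene 230249), a scaffold protein of the proteasome, rose 1.35-fold, from 1160, 1160 and 1060 to 1540, 1460 and 1530 (log2 0.43 ± 0.08, adjusted p = 0.0496). For both genes the combination arrays lay above the vehicle arrays as well. The Mybph call ended without exercise array 2 (adjusted p = 0.0563) or 3 (0.0755) or combination array 2 (0.0508). The Ecpas call stood in 6 of 25 alternatives, and among single arrays only the removal of GW array 1 left it (adjusted p of 0.0508 to 0.213 for the other 11).

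Most lipid synthesis genes were higher in the combination, unevenly across its arrays. Scd1 (Entrez gene 20249), which introduces the double bond into stearoyl-CoA, had 1120, 1180 and 1360 in exercise, 2230, 4120 and 6190 in the combination, 1420, 844 and 1210 in vehicle and 1170, 1680 and 1880 in GW. Combination array 1 lay just above the highest of the other groups and array 3 far above it. Scd1 rose 3.16-fold (log2 1.66 ± 0.28, adjusted p = 0.0266), and its second probe set had 1.47 (0.169). Fasn, the fatty acid synthase gene, had 180, 218 and 179 in exercise and 291, 847 and 1540 in the combination (log2 1.92, adjusted p = 0.107). Of 26 probe sets of lipid synthesis genes 1 rose and 0 fell (median log2 0.79). In this list 2 probe sets were negative, with all combination arrays below exercise (lowest log2 -0.26), and the other 24 were positive. Fat cell markers moved with them: all 14 probe sets tested were positive (median 0.95), 0 passed, and their summed signal was 8150 to 9500 in exercise and 8730 to 18500 in the combination, lowest in array 1. The adipokine gene Adipoq had 283, 338 and 334 in exercise and 270, 1050 and 1470 in the combination. When each array's fat cell marker score was added to the fit, Scd1 had 0.92 (adjusted p = 0.0409), Fasn 0.79 (0.286), Slc27a1 1.46 (0.0113) and Acadl 1.07 (0.00799), while Cpt1a had 1.25 and lost its call (0.199). Without combination array 1, 8 of 26 probe sets of lipid synthesis genes rose (Acly, Dgat2, Fasn, Scd1 and Thrsp) and 8 of 14 of fat cell markers. Over all probe sets 0.346% rose in that fit, which keeps the combination arrays with the highest fat cell marker levels. The Scd1 call ended without exercise array 1 (adjusted p = 0.098), 2 (0.113) or 3 (0.0977) or combination array 2 (0.171) or 3 (0.108). It also ended with a robust prior for the variance (adjusted p = 0.153 by limma) or no intensity trend (0.222).

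Among the genes that fell, Odc1 (Entrez gene 18263), the enzyme that starts polyamine synthesis, dropped furthest. Its signals were 702, 866 and 923 in exercise, 338, 311 and 436 in the combination and 822, 558 and 514 in vehicle. The combination lay below both groups without the drug. Odc1 fell by 1.20 ± 0.18 on the log2 scale, a 2.3-fold drop (adjusted p = 0.00948). Its other probe sets had -0.73 and -0.67 and did not pass. Cd24a (Entrez gene 12484), a small glycoprotein of the cell surface, had 677, 645 and 774 in exercise and 366, 239 and 359 in the combination (log2 -1.14 ± 0.16, adjusted p = 0.00592). Kpna4 (Entrez gene 16649), an importin that carries proteins into the nucleus, had 438, 419 and 428 in exercise and 246, 184 and 170 in the combination (log2 -1.12 ± 0.17, adjusted p = 0.00948). In both genes the highest combination array lay below the lowest array of every other group. Their other probe sets also had negative fold changes, -0.40 and -0.37 for Cd24a and -0.23 for Kpna4, none past the threshold.

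The other genes that fell came from varied pathways. Dusp1 (Entrez gene 19252), the phosphatase that switches off MAP kinases and is itself induced by stress, had 1050, 1070 and 1110 in exercise, 669, 400 and 394 in the combination and 519, 448 and 690 in vehicle. The combination arrays lay below exercise and overlapped vehicle (log2 -1.19 ± 0.20, adjusted p = 0.0264). Slc38a4 (Entrez gene 69354), a carrier of neutral amino acids, had 393, 439 and 405 in exercise and 225, 178 and 203 in the combination and fell by 1.04 on the log2 scale (adjusted p = 0.0392). Anxa7 (Entrez gene 11750), a calcium-dependent membrane-binding protein, had 314, 302 and 322 in exercise and 159, 175 and 162 in the combination and fell by 0.92 (adjusted p = 0.0302). In both the combination lay below all arrays of the other 3 groups. Oxct1 (Entrez gene 67041), which activates ketone bodies for oxidation, fell by 0.83 in 1 of 4 probe sets (adjusted p = 0.0461). That probe set had 235, 270 and 291 in exercise and 165, 148 and 133 in the combination. The other 3 had -0.41 to -0.10 (adjusted p of 0.598 to 0.806). Spns2 (Entrez gene 216892), an exporter of sphingosine-1-phosphate, had 1220, 1260 and 1380 in exercise and 714, 779 and 880 in the combination and fell by 0.70 (adjusted p = 0.0214). The serine incorporator gene Serinc3 (Entrez gene 26943) had 1720, 1820 and 1930 and 1270, 1250 and 1240 and fell by 0.54 (0.0216). In the called probe sets of these genes the arrays kept a clear gap between exercise and the combination. Other probe sets had -0.45 for Slc38a4, -0.66 and -0.49 for Anxa7 and -0.83 and -0.31 for Serinc3, none past the threshold. All 9 genes that fell had a positive fold change between exercise and vehicle, with a median of 0.29, a comparison that shares the exercise arrays. Over all probe sets 51.2% were positive there. Against vehicle 21 probe sets passed (0.155%), of which 20 were higher, and Anxa7 was the only lower one (0.00737%; log2 -0.86, adjusted p = 0.0499).

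Calls for the genes that fell depended on single arrays. No call of Slc27a1, Fbp2, Acadl, Wnt4, Etfb, Acaa2 or Kif1b ended when any 1 of the 12 arrays was left out. All 9 calls of the genes that fell ended without exercise array 3 (adjusted p of 0.0625 for Cd24a to 0.213 for Oxct1). The Anxa7 call also ended without vehicle array 2 (adjusted p = 0.0577), exercise array 1 (0.0966) or 2 (0.102), or combination array 2 (0.115) or 3 (0.119). Dusp1 lost it without exercise array 1 (0.0821) or 2 (0.102) or combination array 2 (0.189) or 3 (0.132). For Kpna4 the other arrays were combination 2 (0.0738) and 3 (0.0612), for Odc1 exercise 2 (0.0578) and combination 2 (0.0744), and for Spns2 exercise 1 (0.0516) and 2 (0.0817) and combination 2 (0.123). For Serinc3 they were exercise 2 (0.0935) and combination 2 (0.123) and 3 (0.108). The calls of Slc38a4 and Oxct1 stood in 4 and 3 of the 12 omissions, with adjusted p of 0.0603 to 0.226 and 0.0508 to 0.213 in the others. With the fat cell marker score added, 10 of the 22 calls ended, 7 of lower genes (Anxa7, Kpna4, Slc38a4, Oxct1, Cd24a, Dusp1 and Serinc3) and those of Cpt1a, Klf15 (adjusted p = 0.195) and Ecpas (0.179). Their log2 fold changes in that fit were -0.96 for Anxa7, -1.02 for Slc38a4, -1.09 for Cd24a, -0.57 for Serinc3, -0.78 for Oxct1, -0.92 for Kpna4 and -0.86 for Dusp1, with adjusted p of 0.0699 to 0.264, and 0.93 for Klf15 and 0.46 for Ecpas.

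Klf15 and Kif1b, lower in exercise than in vehicle, stood at the vehicle level in trained mice given the drug. Klf15 (Entrez gene 66277), a transcription factor of amino acid and lipid use in muscle, had 359, 351 and 425 in vehicle, 169, 195 and 215 in exercise, 374, 403 and 299 in the combination and 294, 437 and 354 in GW. The exercise arrays lay below all others, which overlapped. Klf15 rose 1.85-fold against exercise (log2 0.89 ± 0.16, adjusted p = 0.0489). Its difference of -0.97 between exercise and vehicle did not pass (adjusted p = 0.0815), and the combination differed from vehicle by -0.08 (95% interval -0.43 to 0.27). Kif1b (Entrez gene 16561), a kinesin motor for mitochondria and vesicles, had 991, 964 and 1030 in vehicle, 681, 620 and 647 in exercise, 1130, 951 and 987 in the combination and 896, 963 and 929 in GW. Again only the exercise arrays lay apart. Kif1b rose 1.57-fold (log2 0.65 ± 0.09, adjusted p = 0.00592) and differed from vehicle by 0.04 (95% interval -0.16 to 0.23), but its 6 other probe sets had fold changes of -0.01 to 0.24. Kif1b was 1 of 2 probe sets, 0.0147%, called between exercise and vehicle, where it fell by 0.62 (adjusted p = 0.0469). The Klf15 call stood in 3 of the 12 omissions of an array (adjusted p of 0.0541 to 0.269 in the others, among them 0.0652 without combination array 1).

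Wnt4 (Entrez gene 22417), a secreted Wnt ligand, went past the vehicle level. It had 353, 444 and 470 in vehicle, 291, 266 and 247 in exercise, 584, 637 and 575 in the combination and 499, 657 and 648 in GW. The drug-treated arrays lay above vehicle and the exercise arrays below it. Wnt4 rose 2.24-fold against exercise (log2 1.16 ± 0.14, adjusted p = 0.00161) and was 0.51 above vehicle (adjusted p = 0.201).

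Return to the vehicle level was then counted over all probe sets with a large difference between exercise and vehicle. A probe set counted as shifted by training where exercise differed from vehicle by at least 2-fold and their arrays did not overlap. It counted as returned where the combination differed from vehicle, in either direction, by less than 50% of that shift on the log2 scale. All combination arrays also had to lie on the vehicle side of the exercise arrays. The rule uses the arrays of all 3 groups, so the counts are a description. Of 13575 probe sets 174 were shifted (1.28%), 132 raised and 42 lowered. Of these 49 or 28.2% were returned, 31 of the raised (23.5%) and 18 of the lowered (42.9%), and 86 (49.4%) kept at least 50% of their shift in the same direction. Between exercise and vehicle only 2 of all probe sets tested passed by limma (0.0147%), Egr1 (adjusted p = 0.0469) and Kif1b, which differed by less than 2-fold. Apart from Egr1, the shifts counted here did not pass and are differences of means. Against exercise, 0 of the 49 passed the limma test, with adjusted p from 0.0506 upward. The unadjusted p was under 0.05 in 20 of the 31 and 16 of the 18 (9.18% of all probe sets), from which nothing is read, since the rule asks for combination arrays apart from exercise. The 95% interval of the combination minus vehicle held 0 for all 49, but lay within 2-fold for only 5 of the 31 and 5 of the 18. The lower of the vehicle and exercise means was below background in 6 of the 31 and 10 of the 18. The training minimum of 2-fold left out Dusp1 (log2 0.99 between exercise and vehicle) and Klf15 (-0.97), and just admitted Il1f9 (1.00) and Praf2 (-1.01). The count was 6 with only the upper 40% of probe sets by signal and 131, 110 and 83 without exercise arrays 1, 2 and 3.

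The raised and returned genes were led by immediate early genes, which respond to stimulation within minutes. Egr1, a zinc finger factor of this class, had 85.3, 57.9 and 78.7 in vehicle, 794, 869 and 937 in exercise, 414, 96.4 and 61.8 in the combination and 192, 59.8 and 79.1 in GW. Fos, a subunit of the AP-1 factor, had 49.3, 54.2 and 48.3 in vehicle, 900, 872 and 1130 in exercise, 460, 92.5 and 39.2 in the combination and 111, 23.6 and 37.6 in GW. For both, combination array 1 lay between the levels of exercise and vehicle, and arrays 2 and 3 lay at or near vehicle. The log2 fold change against exercise was -2.68 ± 0.53 for Egr1 (adjusted p = 0.0664) and -3.02 ± 0.66 for Fos (0.104). With that array left out it was -3.49 (adjusted p = 0.000545) and -3.99 (0.00106). The array was singled out by its levels of such genes, so these values are a description and not a test. Ier2, another gene of this class, had 205, 192 and 181 in exercise and 119, 72.3 and 66.7 in the combination (log2 -1.21, adjusted p = 0.0771), with 85.3, 95 and 63.3 in vehicle. All 3 of its combination arrays lay below exercise. Of 10 shifted probe sets of immediate early genes, 5 were returned (Ccn1 with 2, Egr1, Fos and Ier2), 2 of Nr4a2 were kept and 3 were neither. Heat shock and unfolded protein genes also had 10 shifted probe sets, of which 1 (Serpinh1) was returned, 1 (Hsp90aa1) was kept and 8 were neither.

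Over the list of immediate early genes 25 of 29 probe sets had a negative fold change in trained muscle (median log2 -0.39), and 1, Dusp1, fell. When combination array 1 was left out, 6 of 29 fell (Dusp1, Egr1, Fos, Ier2, Jun and Klf2) and the median was -0.68. Over all probe sets 0.265% fell in that fit. Heat shock and unfolded protein genes had a median of -0.33, with 35 of 49 probe sets negative and 0 that fell. The chaperone gene Hspa1b had, in 1 of 3 probe sets, 916, 927 and 1020 in exercise and 1340, 83.5 and 29.7 in the combination (log2 -2.67, adjusted p = 0.388). Combination array 1 lay above all exercise arrays and arrays 2 and 3 lay within or below the range of the vehicle arrays, at 118, 98.4 and 53.7. Dnajb1, its co-chaperone, had the same split, with 868, 853 and 1090 in exercise and 1700, 224 and 121 in the combination. Leaving that array out, 9 of 49 probe sets of this list fell (0.265% over all), those of Dnajb1, Hsp90aa1, Hspa1a, Hspa1b and Serpinh1. What sets that array apart was not tested.

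Serpinh1, the collagen chaperone, was lower in all 3 combination arrays. It had 239, 173 and 195 in vehicle, 389, 461 and 485 in exercise, 287, 180 and 180 in the combination and 189, 171 and 261 in GW (adjusted p = 0.0556). The exercise arrays lay above all others, and the combination differed from vehicle by 0.07. Its second probe set had -0.58 (adjusted p = 0.27). Myh3, the embryonic myosin heavy chain, had 56.4, 122 and 96.4 in exercise and 29.7, 26.3 and 5.77 in the combination, with 25.9, 15.6 and 9.11 in vehicle (log2 -2.40, adjusted p = 0.191). The vehicle and combination arrays lay near or below background, so the size of that drop is poorly measured.

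Ttf1, a termination factor of ribosomal RNA transcription, was among the genes counted as lowered and returned. It had 59.9, 73.4 and 90.6 in vehicle, 27.4, 16.7 and 14.6 in exercise, 60.7, 73.7 and 74.7 in the combination and 30.3, 59.2 and 57 in GW. The combination arrays lay within the vehicle range and above exercise (log2 1.88, adjusted p = 0.0506, and 1.98 with 0.0465 without combination array 1). Cilp2, a matrix protein, had 44.7, 54.2 and 47.8 in vehicle, 28.6, 11.3 and 5.5 in exercise and 49.6, 64.2 and 82.3 in the combination (log2 2.40, adjusted p = 0.0796). Most exercise signals of both genes lay below the background level. In Mapkap1 the probe set counted as returned had 19.5, 10.9 and 16.8 in exercise and 43.3, 62.1 and 75.3 in the combination, while a brighter one had 533, 485 and 505 against 521, 482 and 482.

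**Figure D4:**
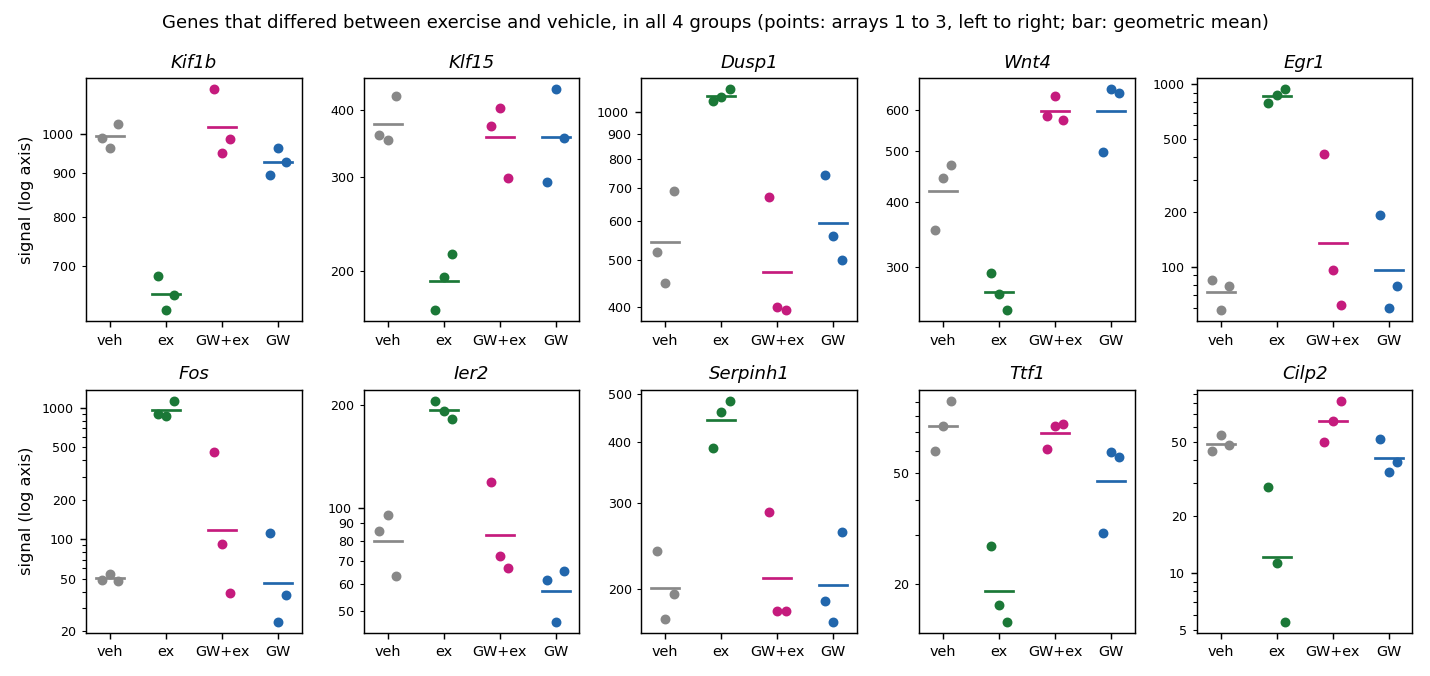
MAS5 signal (y axis, log scale) of 10 genes that differed between exercise and vehicle, in vehicle, exercise, GW + exercise and GW (x axis); points are arrays 1 to 3 from left to right, and the bar is the geometric mean. In Klf15 and Kif1b all combination points lie at the vehicle level, while in Egr1 and Fos combination array 1 (414 and 460) lies above arrays 2 and 3.

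Other shifted probe sets stayed away from the vehicle level in the combination. The kept probe sets had a median log2 difference from vehicle of 1.32 in exercise and 1.05 in the combination where raised (75), and of -1.17 and -0.99 where lowered (11); these comparisons share the vehicle arrays. GW against vehicle, which shares them too, had medians of 0.81 and -0.70 in the same sets, in the direction of training in 70 of 75 and 9 of 11, and over all shifted probe sets in 115 of 132 raised (median 0.72) and 34 of 42 lowered (median -0.37). The training effect under the drug, the combination against GW, shares no array with exercise against vehicle. Of the 132 probe sets counted as raised by training, 75 were higher in the combination than in GW (median log2 0.05). Of the 42 counted as lowered, 21 were lower (median 0.00). Over all probe sets 50% were positive in that comparison and 0 passed by limma (781 had an unadjusted p under 0.05, 5.75%). Among the kept ones 48 of 75 raised were higher (median 0.16) and 9 of 11 lowered were lower (median -0.40), and among the returned ones 12 of 31 (median -0.14) and 4 of 18 (median 0.29); the combination arrays also chose these sets, so their shares are a description. The largest kept shifts, of Wnt7b, Prrc1, Myoz2, Lig3 and Nr4a2, were in probe sets with at least 1 vehicle signal below background. Wnt7b had 122, 49.6 and 58.7 in exercise and 29.5, 97.8 and 68 in the combination, against 23.9, 12 and 8.04 in vehicle, so the size of its shift is poorly measured. Kept genes also included the heart-type lactate dehydrogenase gene Ldhb with 3 probe sets, the oxygen store myoglobin (Mb) and the IIa myosin gene Myh2. Mb had 8240, 10000 and 7790 in exercise, 6390, 8300 and 5300 in the combination and 5510, 3930 and 3230 in vehicle (log2 -0.40 against exercise, adjusted p = 0.726). Its combination arrays overlapped both other groups.

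Outside fatty acid oxidation the mitochondrial lists, and the fibre type lists, held no called probe set in trained muscle. Oxidative phosphorylation genes had a median of -0.01 over 81 probe sets and tricarboxylic acid cycle genes one of 0.02 over 30, with 0 called in either. The 3 probe sets of citrate synthase (Cs) had 0.19, 0.07 and 0.03. The coactivator gene Ppargc1a had fold changes of -0.45 to -0.10 in 5 probe sets (adjusted p from 0.813 to 0.96). The IIb myosin gene Myh4, the main fast isoform here, had 19500, 20700 and 20400 in exercise and 18300, 20800 and 19700 in the combination (log2 -0.04 ± 0.07, adjusted p = 0.907). The medians were -0.30 for slow fibre genes, 4 of 12 positive, and -0.05 for fast fibre genes, 6 of 23 positive, with 0 called in either. Foxo and atrophy genes had a median of 0.09 with Klf15 as the single call of 29. Clock genes had a median of 0.18 and regulators of oxidative metabolism one of -0.04, with 0 called. Growth factor and angiogenic genes had a median of -0.19, and Vegfa, the angiogenic factor, had 295, 301 and 308 in exercise and 214, 137 and 164 in the combination in 1 of 2 probe sets (log2 -0.84, adjusted p = 0.0979).

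The drug effect was also read in sedentary mice, GW against vehicle, which shares no array with the comparison in trained mice. There 13 probe sets passed (0.0958%), 10 higher (0.0737%) and 3 lower (0.0221%), and 49.8% of all were positive. All 10 higher ones were also higher in trained muscle and 5 passed there, while all 3 lower ones, Pfkfb3, Gadd45g and Dusp10, were lower and 0 passed. Of the 13 that rose in trained muscle, 11 had a positive fold change in sedentary muscle (median 0.62, against 0.93 in trained). Of the 9 that fell, 6 had a negative one and 0 passed (median -0.12, against -1.04). Over the 63 probe sets of fatty acid and PPAR target lists the fold changes in trained and sedentary mice had Pearson's r = 0.57 and Spearman's rho = 0.45. Over all 13575 they had 0.01 and 0.02. Probe sets are not independent and carry no p. The lists were chosen with earlier results of these data known and hold Acadl, Acaa2, Slc27a1 and Ucp3, called in both comparisons. Nothing is therefore read from the higher values in the lists.

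Slc27a1 had nearly the same log2 fold change in trained (1.55) and sedentary (1.53) mice, and Fbp2 had 1.21 in both. Acadl had 1.03 and 1.34, Mlycd 0.45 and 0.85, and Fabp3 0.38 and 0.82. Pfkfb3, a kinase that speeds glycolysis, had -0.34 in trained and -1.40 in sedentary mice. Gadd45g, a stress-induced growth arrest gene, had -0.15 and -1.19. The difference of the drug effects itself, the interaction, passed for 0 of 13575 probe sets by limma (922 had an unadjusted p under 0.05, 6.79%). Its smallest adjusted p was 0.102 for Kpna4 (log2 -1.58), followed by Cd24a (-1.31, 0.158) and Kif1b (0.75, 0.158). Without combination array 1, 9 probe sets passed, those of Kpna4, Cd24a, Dusp1, Egr1, Hspa1a, Hspa1b with 2, Slc25a30 and Adipoq. Of these genes, Dusp1, Egr1, Hspa1a, Hspa1b and Adipoq belong to lists by which that array was singled out.

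**Figure D5:**
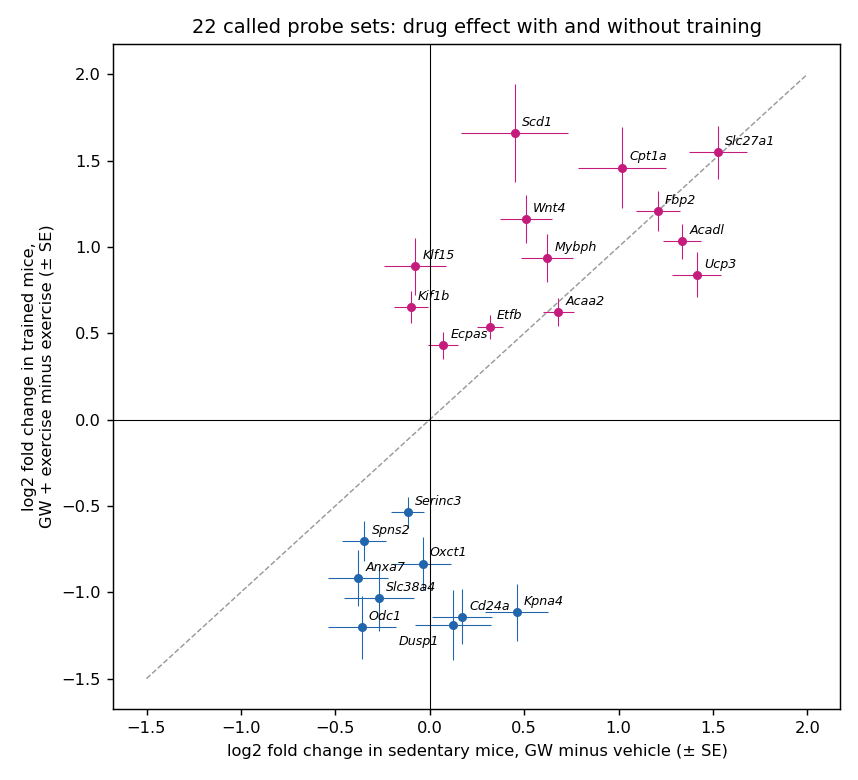
Log2 fold change of GW1516 in trained mice (y axis, combination minus exercise) against that in sedentary mice (x axis, GW minus vehicle) for the 22 probe sets that rose or fell in trained mice; bars are standard errors and the dashed line marks equal effects. Slc27a1 and Fbp2 lie on the line, and Kpna4 and Cd24a lie below it with positive sedentary values (0.46 and 0.17).

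Markers of other cell types in whole muscle are given because, in such tissue, fewer cells of a type cannot be told apart from less RNA per cell. Summed signals in exercise and in the combination were 1740 to 2000 and 1560 to 2020 for endothelial markers, 1820 to 3130 and 1050 to 1920 for macrophage markers and 10000 to 11100 and 8040 to 12300 for fibroblast and matrix markers. Of 18 macrophage probe sets 16 had a negative fold change (median -0.33), and of 21 fibroblast and matrix probe sets 18 did (median -0.23). Satellite cell and regeneration markers had a median of -0.23 with 0 of 9 positive. Schwann cell markers had one of -0.12, endothelial markers one of 0.02, and muscle fibre markers one of -0.05. No marker probe set passed in these lists. Of 14 fat cell markers on the array, 13 had a mean above background, all but Lep, and 10 passed the filter on low signal; the part of fat cells in the lipid synthesis result was not tested beyond the fit with their score.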

How the data were processed

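RNA of quadriceps muscle, pooled from 3 mice per array, was hybridised to 12 mouse expression arrays, 3 in each of 4 groups taken from the sample titles. The authors deposited signal intensities on a linear scale, made with MAS5 of a version not stated, per the submitters' processing notes. The table held 22690 probe sets, and 64 controls were left out. Signals were log2-transformed with no pseudocount, and the upper 60% by mean log2 signal (13575, with a mean above 28.4) were tested. In R 4.3.3 with limma 3.58.1, all 12 arrays entered a linear model of the 4 groups, which left 8 residual degrees of freedom, with an intensity trend in the moderated variance. P-values were two-sided and adjusted by Benjamini-Hochberg across all tested probe sets. With 3 arrays per group the number of arrays limits precision; the median standard error of the main contrast was 0.21. The script was tested on simulated data.

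Symbols came from the array annotation; 12512 of the probe sets tested had 1 symbol, and no gene was named from the others. The members and the 24 gene lists, 4 of whose symbols were updated through RefSeq synonyms, were chosen with earlier results of these data known, so the lists are described by counts and medians. The rule for named genes took the called genes (up to 15 each way), up to 5 members per list, the 15 largest returned and 5 largest kept shifts, the 5 smallest interaction p-values and 21 genes of fuel use, stress and fibre type; a few others, such as Jun, Klf2, Praf2 and Il1f9, and second probe sets were chosen after their values were seen. Promoters came from RefSeq (GRCm38.p6). Alternatives changed the normalization, pseudocount, filter, variance model, arrays and return rule. Same-numbered exercise and combination arrays had correlations of 0.03, 0.01 and 0.03 in their deviations, so the numbers were not taken as pairs.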

Additional observations from a re-analysis of the deposited data

Results flagged for a closer look

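Among the 177 probe sets that the rule for named genes took, partly for their small interaction p-values or their return to the vehicle level, 11 had all 3 drug-treated arrays on one side of the matched controls in trained mice and all 3 on the opposite side in sedentary mice. Over all 13575 probe sets tested 92 did (0.678%). In none of the 11 did the difference of the drug effects pass the limma test (adjusted p from 0.158 to 0.727), and no explanation was weighed. The drug effect was higher in trained than in sedentary mice, as a log2 difference, by 3.64 for Ushbp1, 3.26 for Slc66a1, 2.79 for Mapkap1, 2.54 for Ttf1, 2.45 for Ccnl2 and 0.75 for Kif1b. The difference was -3.85 for Limk1, -2.25 for Trib1, -1.97 for Flt4, -0.56 for Cnp and -0.48 for Cycs. In 6 of the 11 (Flt4, Limk1, Mapkap1, Slc66a1, Trib1 and Ttf1) at least 1 group mean was below the background level of 23.5, so the sizes of these differences are poorly measured. The same holds for Ushbp1, with 12.7, 67.6 and 9.65 in GW and 10.3, 49.4 and 33.7 in exercise. The kinesin gene Kif1b had 0.65 and -0.10, and the cyclin gene Ccnl2 had 1.25 and -1.20. The cytochrome c gene Cycs had -0.24 and 0.24, the smallest of these differences.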

How the results depend on the processing

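The count of 22 calls in trained muscle was 4 without an intensity trend (Acadl, Fbp2, Slc27a1 and Wnt4), 39 with array weights, 40 with only the groups compared in the fit, and 8 to 83 when 1 array was left out. Combination arrays 2 and 3 were also left out, a choice made after the data were seen. That left 1 array in the group, assumed to vary like the other groups, so no calls are counted. Acadl, Fbp2 and Slc27a1 then had log2 fold changes of 1.03, 1.14 and 1.37, and Odc1 had -1.29 (-1.20 with all arrays). Other genes had smaller values than with all arrays: Scd1 0.87 (1.66), Dusp1 -0.69 (-1.19) and Kpna4 -0.80 (-1.12). With the replicate number as a block the count of calls was 26, of which 18 were among the 22. In sedentary mice the count of 13 was 7 without the trend, 20 with array weights, 7 with only the groups compared and 10 to 18 with 1 array left out. The interaction count of 0 was 1 with array weights, 1 with the replicate block and 0 to 9 with 1 array left out. The 49 returned probe sets became 32 with a pseudocount of 10.5, 242 with no filter on low signal, 6 in the upper 40% by signal, 152 with a training shift of at least 1.5-fold, 30 with a return to within 25% of the shift, 143 with no rule on overlap, 44 to 131 with 1 array left out and 75 without combination arrays 2 and 3. No called value changed sign in the alternatives run. Signals near the background level of 23.5, 3 pools per group and the split within the combination arrays limit these results.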
